A study of Mus musculus with 15 samples.

Results

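The genes described here encode the proton pump, the proteases and the main membrane glycoproteins of the lysosome. They are the rows of the table whose symbol begins with Atp6v or Atp6ap, is Cts followed by 1 letter, or begins with Lamp followed by a digit. That gave 41 of the 17594 rows: 24 rows of the proton pump (12 of its V1 sector, 8 of its V0 sector, 3 accessory proteins and 1 processed pseudogene), 14 cathepsins and 3 Lamp genes. Of the 41, 33 passed the filter on low values (a normalized count of at least 10 in at least 3 libraries), as did 11314 rows in all. The 8 that did not were Atp6ap1l, Atp6v0e2, Atp6v1b1, Atp6v1c2, Atp6v1g3, Ctsg, Ctsh and Ctsk.

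The vacuolar ATPase is a rotary pump that spends ATP to carry protons into lysosomes and endosomes. Its V1 sector, in the cytosol, splits ATP, and its V0 sector, in the membrane, carries the protons. Several subunits exist as isoforms encoded by separate genes, which differ between tissues and membranes. The acid it makes lets cathepsins, proteases of the cysteine, aspartic and serine classes, work in these compartments, while the heavily glycosylated Lamp proteins line the lysosomal membrane.

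RNA was sequenced from CD4 T cells sorted from mouse spleen on the C57BL/6 background, to compare animals that lack Hpgd in Foxp3-expressing cells with control animals. Hpgd encodes the enzyme that begins the breakdown of prostaglandin E2. Treg KO are regulatory T cells (Treg, marked by Foxp3, a transcription factor) from animals with a conditional Hpgd allele and a Foxp3-Cre-YFP driver, 4 libraries. Treg WT are regulatory T cells from animals labelled wild-type, 4 libraries. Tconv KO are conventional CD4 T cells from the knockout animals, 4 libraries, in which the driver is not expected to act because it is tied to Foxp3. Tconv WT are conventional CD4 T cells from wild-type animals, 3 libraries. The sources used here state neither whether the control animals carried the driver nor how old the animals were. The labels do not say which libraries share an animal.

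Libraries held 2.64 to 4.71 M reads assigned to genes (M, 10 to the power 6) in Treg KO, 6.43 to 10.0 M in Treg WT, 2.95 to 10.3 M in Tconv KO and 6.60 to 11.1 M in Tconv WT, and Treg KO replicate 3 was the shallowest. Hpgd itself had 0 reads in all Treg KO libraries and 1 read over the 4 Treg WT libraries, so the knockout could not be checked by its level. Foxp3 fitted the cell labels: 3314 to 4590 in Treg KO, 4006 to 4800 in Treg WT, 18.9 to 69.5 in Tconv KO and 14.4 to 20.6 in Tconv WT. The Treg markers Il2ra, Ikzf2 and Ctla4 were also higher in every Treg library than in any Tconv library. Tconv KO replicate 1 had the highest Ikzf2 and Ctla4 of the Tconv libraries, 3195 and 764. Ikzf2 was 366 to 1215 in the rest of Tconv KO and 738 to 870 in Tconv WT. Ctla4 was 188 to 434 in the rest of Tconv KO and 266 to 345 in Tconv WT. The Y-linked gene Ddx3y had 0 reads in all 8 KO libraries and levels of 1154 to 1520 in all 7 WT libraries, so genotype and sex cannot be told apart in any KO against WT value below. Levels are normalized read counts as the authors scaled them. Fold changes are differences of log2(level + 1) between group means, ± SE, and a gene is said to have passed when limma's adjusted p (Benjamini-Hochberg, over all 11314 genes) was under 0.05. All levels come from bulk RNA, in which fewer cells of a type and less RNA per cell cannot be told apart.

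Cell type set more of these genes apart than genotype did. In WT cells, 7 of the 33 were higher and 3 lower in Treg than in Tconv, 30.3% in all, where 18.1% of all genes tested passed (10.0% higher and 8.06% lower). With TMM scaling in place of the authors' scaling, the same comparison gave 7 higher and 5 lower, against 1119 and 943 over all genes. It gave 7 higher and 6 lower in edgeR (1309 and 1017 over all genes) and in DESeq2 (1396 and 1221). With only these groups fitted it gave 9 higher and 11 lower, a fit that called 2064 higher and 1926 lower over all genes. In KO cells, 6 were higher and 11 lower in Treg KO than in Tconv KO, 51.5%, where 31.4% of all genes passed (15.8% higher and 15.6% lower).

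Knockout and control differed in few of them. In Treg, 2 of the 33 members were higher in KO than in WT and 0 lower, 6.06%, where 21.5% of all genes passed (10.4% higher and 11.1% lower). DESeq2 also called 2 members lower, Atp6v0b and Atp6v0c-ps2, and 1325 genes lower in all. In edgeR, 0 members and 1264 genes were lower. An unadjusted limma p under 0.05 was found for 8 of the 33 members and for 4108 of the 11314 genes tested. In Tconv, 1 member was higher in KO and 0 lower, where 0.681% of all genes passed, 0.292% higher and 0.389% lower. The median log2 fold change of KO against WT over the 33 members was 0.05 in Treg and 0.11 in Tconv, against 0.00 over all genes in both.

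Of the members called between cell types, 6 were higher in Treg in both genotypes (Atp6v0d2, Atp6v0a1, Atp6v1g2, Ctss, Ctsz and Ctsf) and 3 were lower in both (Atp6v0a2, Atp6ap2 and Ctsd). These 9 are 52.9% of the 17 called in KO and 90.0% of the 10 called in WT. The same shares over all genes were not counted, so whether such agreement is particular to these members was not tested. The other 8 called in KO were all lower in Treg: Atp6v0b, Atp6v0c-ps2, Atp6v0d1, Atp6v1b2, Atp6v1e1, Atp6v1h, Ctsa and Ctsl. No member passed limma's test of whether the KO effect differed between Treg and Tconv (0 of 33). Over all genes 0.150% passed, 0.0354% higher and 0.115% lower. For this test edgeR called 0 members, against 2 genes higher and 15 lower in all. DESeq2 called 1 member, against 32 genes higher and 59 lower in all. An unadjusted limma p under 0.05 was found for 3 members and for 963 of the 11314 genes tested. A call in 1 genotype only is therefore not a shown difference between genotypes. Neither cell-type comparison called 15 members.

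**Figure D1:**
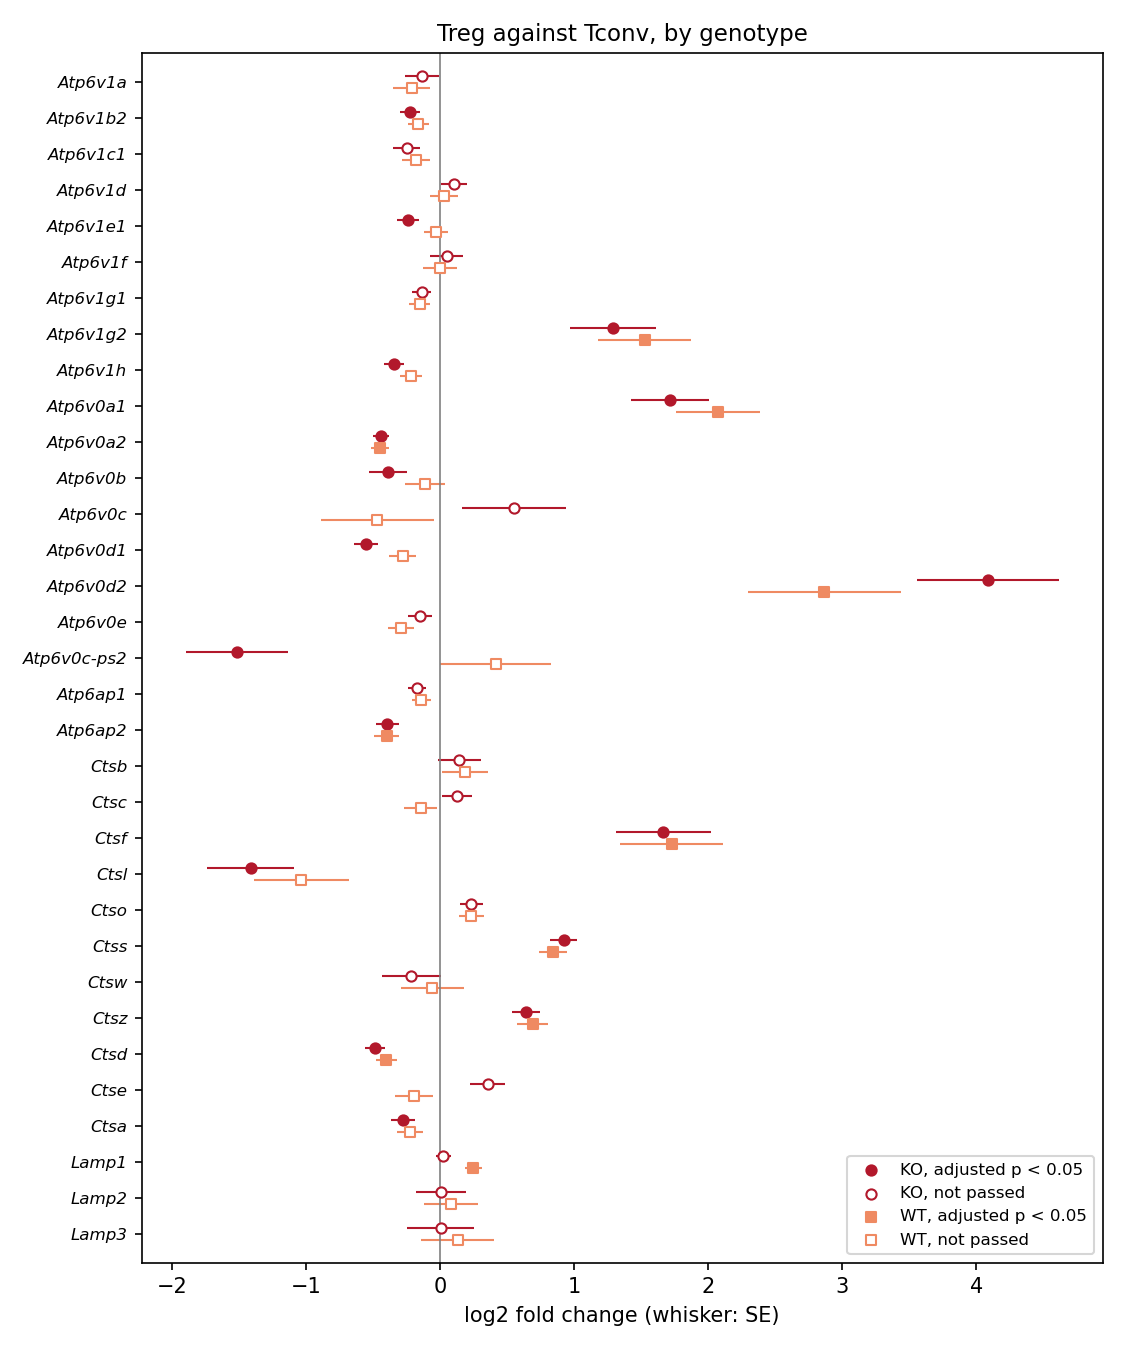
Log2 fold change (x axis) of Treg against Tconv for the 33 members tested, KO (circles) above WT (squares), ordered by role, with whiskers of 1 SE and filled symbols for an adjusted p under 0.05. Atp6v0d2 lies farthest to the right in both genotypes (4.09 in KO and 2.86 in WT), followed by Atp6v0a1, Ctsf and Atp6v1g2, and most pump subunits lie within 0.5 of 0.

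Atp6v0d2 (ENSMUSG00000028238.6, chromosome 4, 19876841 to 19922605, minus strand, GRCm38) had the pump rows' highest log2 fold change in both Treg against Tconv comparisons. The same held in both KO against WT comparisons, though Atp6v0d2 did not pass in Tconv. It encodes isoform d2 of the V0 subunit that couples the rotating membrane ring to the stalk, and in the mouse it is best known from osteoclasts and macrophages. Its normalized counts were 119, 74.0, 162 and 40.1 in Treg KO, 11.7, 22.8, 20.4 and 16.8 in Treg WT, 5.24, 7.98, 1.97 and 3.33 in Tconv KO, and 1.81, 4.74 and 0 in Tconv WT. Every Treg KO library was above every Treg WT library, and every Treg library was above every Tconv library, while Tconv KO and Tconv WT overlapped. These levels rest on 30 to 82 reads a library in Treg KO, 17 to 35 in Treg WT, 1 to 7 in Tconv KO and 0 to 9 in Tconv WT. The 0 in Tconv WT replicate 3 allows a level of up to 2.06 (3 reads), by counting error alone.

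Atp6v0d2 averaged 98.7 ± 52.9 in Treg KO and 17.9 ± 4.82 in Treg WT (SD, n = 4 each), a log2 fold change of 2.26 ± 0.53 (adjusted p = 0.00909). This was higher in 4 of 4 Treg KO libraries than in any Treg WT library, and it kept an adjusted p of at most 0.0338 over the 16 other settings and left-out libraries that gave a value. In Tconv, the means of 4.63 ± 2.60 in KO (n = 4) and 2.18 ± 2.39 in WT (n = 3) gave 1.04 ± 0.57, which did not pass (adjusted p = 0.483). The difference between these 2 effects was 1.22 ± 0.78 and did not pass either (adjusted p = 0.691). Treg WT against Tconv WT gave 2.86 ± 0.57 (adjusted p = 0.00208), and Treg KO against Tconv KO gave 4.09 ± 0.53 (adjusted p = 3.39e-05). Over the settings and left-out libraries that gave a value, the WT value ran from 1.35 to 4.28 and the KO value from 2.95 to 4.45.

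No other pump row passed between Treg KO and Treg WT, where 21.5% of all genes tested did. The 18 others had log2 fold changes of -1.02 to 0.24 with a median of -0.02. Atp6v1d, a rod of the central stalk, was the highest of them at 0.24 ± 0.10 (adjusted p = 0.0885). Every Treg KO library was above every Treg WT library for Atp6v1d, and likewise for Atp6ap2 at 0.23 ± 0.09 (adjusted p = 0.0662). The pseudogene Atp6v0c-ps2 was the lowest at -1.02 ± 0.38 (adjusted p = 0.0685). Atp6v0b, a part of the proton-carrying ring, was at -0.38 ± 0.14 (adjusted p = 0.0661), with 189, 175, 108 and 162 in Treg KO, against 214, 186, 215 and 192 in Treg WT.

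Atp6v0d1 (ENSMUSG00000013160.7, chromosome 8, 105524465 to 105566047, minus strand) is the widely expressed isoform of the same subunit. It had 244, 244, 183 and 205 in Treg KO, 247, 241, 229 and 235 in Treg WT, 311, 309, 341 and 315 in Tconv KO, and 283, 304 and 281 in Tconv WT. All 8 Treg libraries were below all 7 Tconv libraries, and the Treg KO and Treg WT libraries overlapped. Its log2 fold change was -0.55 ± 0.09 in Treg KO against Tconv KO (adjusted p = 0.00028) and -0.28 ± 0.10 in Treg WT against Tconv WT (adjusted p = 0.0580). The WT value passed in edgeR, DESeq2 and 3 other settings. In Treg KO against Treg WT it was -0.13 ± 0.09 (adjusted p = 0.314).

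The isoform pair thus moved in opposite directions between cell types, and the ratio of d2 to d1 followed. The log2 ratio of Atp6v0d2 to Atp6v0d1 averaged -1.31 ± 0.92 in Treg KO, -3.70 ± 0.43 in Treg WT, -5.95 ± 0.74 in Tconv KO and -6.84 ± 1.22 in Tconv WT (SD, n = 4, 4, 4 and 3). Every Treg KO library lay above every Treg WT library, with a lowest value of -2.32 against a highest of -3.35. The difference of 2.39 between Treg KO and Treg WT had the smallest p that an exact two-sided permutation test of 4 against 4 libraries can give, 0.0286, and 0.0571 after adjustment over the 4 comparisons of this ratio. Treg KO against Tconv KO differed by 4.64, with the same exact permutation p of 0.0286. Treg WT against Tconv WT differed by 3.14 with an exact permutation p of 0.0571, the smallest possible for 4 against 3. Tconv KO against Tconv WT differed by 0.90, with an exact permutation p of 0.343. After adjustment, the permutation p was 0.0571 for Treg KO against Tconv KO, 0.0762 for Treg WT against Tconv WT and 0.343 for Tconv KO against Tconv WT. With these numbers of libraries, no adjusted permutation p could fall below 0.0571, so no comparison of this ratio could have passed. Per kilobase of the longest annotated coding transcript, d2 still stood at 38.9 against 134 for d1 in Treg KO, and at 7.05 against 146 in Treg WT.

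**Figure D2:**
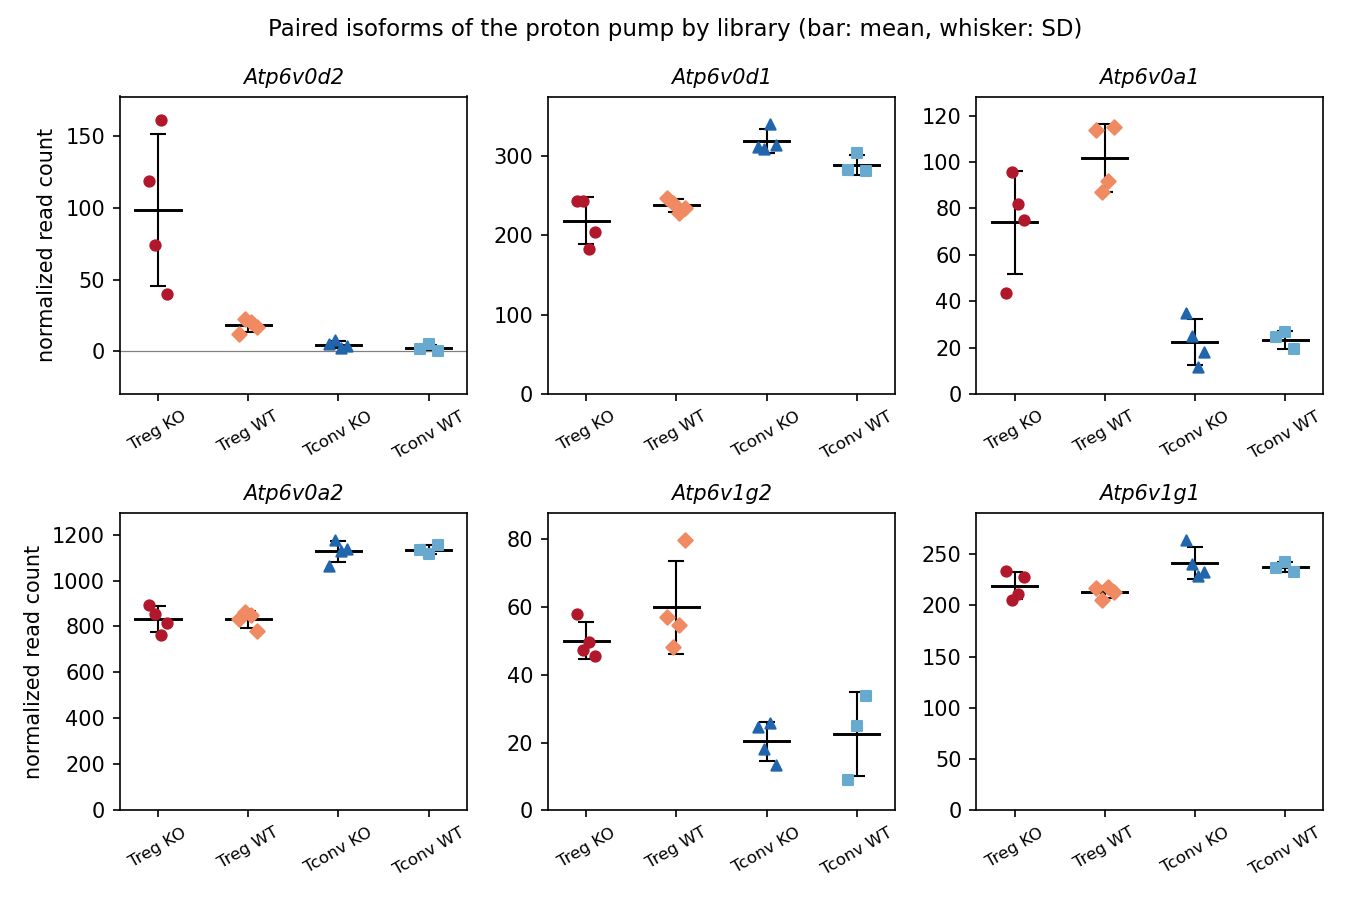
Normalized read count (y axis, linear, 1 panel a gene) in each library of Treg KO, Treg WT, Tconv KO and Tconv WT for 3 isoform pairs of the pump, with the mean (bar) and SD (whisker) of each group. Atp6v0d2 reached 40.1 to 162 in Treg KO and no more than 22.8 elsewhere, Atp6v0a1 and Atp6v1g2 were higher in Treg of both genotypes, and Atp6v0d1 and Atp6v0a2 were lower in Treg of both genotypes.

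Markers of cell types in which Atp6v0d2 is known to be expressed were measured beside it. The summed level of the 8 monocyte, macrophage and neutrophil markers in the table (of 9 listed) was 11.6 to 21.5 in Treg KO, 10.5 to 39.9 in Treg WT, 21.7 to 35.3 in Tconv KO and 25.4 to 29.5 in Tconv WT. Csf1r and Cd14 had 0 reads in all Treg KO libraries. The 5 dendritic cell markers summed to 40.9 to 145 in Treg KO, 18.5 to 22.8 in Treg WT, 8.89 to 36.7 in Tconv KO and 8.13 to 11.1 in Tconv WT. That sum was mostly Zbtb46, with 128, 37.6, 36.6 and 37.4 in Treg KO and 17.8, 21.4, 16.3 and 13.3 in Treg WT (adjusted p = 0.0449), and Xcr1 was also higher, with 15.96, 14.6, 4.31 and 6.69 in Treg KO and 0.685, 1.38, 2.33 and 6.21 in Treg WT (adjusted p = 0.0461), its groups overlapping. Siglech had 0 reads in Treg KO, and Itgax and Flt3 stayed at or below 1.5 there. The part of these cells in the Atp6v0d2 result was not tested.

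Subunit a, which holds the path of the protons and steers the pump to a membrane, also differed by isoform between the cell types. Atp6v0a1 (ENSMUSG00000019302.16, chromosome 11, 101009452 to 101063719, plus strand), best known from neurons, had 43.5, 95.8, 81.9 and 74.9 in Treg KO, 114, 86.9, 91.9 and 115 in Treg WT, 35.0, 25.1, 11.8 and 18.3 in Tconv KO, and 24.4, 26.9 and 19.2 in Tconv WT. Every Treg library was above every Tconv library, and the genotypes overlapped in both cell types. Treg against Tconv gave 1.72 ± 0.29 in KO (adjusted p = 0.000364) and 2.07 ± 0.31 in WT (adjusted p = 0.000195). Treg KO against Treg WT gave -0.50 ± 0.29 and did not pass (adjusted p = 0.224).

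Atp6v0a2 (chromosome 5, 124628576 to 124724455, plus strand), an isoform of Golgi and endosomes, ran the other way. It had 892, 856, 765 and 817 in Treg KO, 831, 864, 851 and 780 in Treg WT, 1065, 1177, 1130 and 1135 in Tconv KO, and 1134, 1116 and 1153 in Tconv WT. All Treg libraries were below all Tconv libraries in either genotype, with log2 fold changes of -0.44 ± 0.06 in KO (adjusted p = 5.78e-05) and -0.45 ± 0.06 in WT (adjusted p = 0.000134). Atp6v0a2 shares 493 bases of exon with the antisense gene 4930404A12Rik on the other strand, and the sources do not state whether the count used strand. The gene of the a3 isoform, Tcirg1, which has no Atp6 symbol, averaged 480 ± 96.6 in Treg KO, 597 ± 42.0 in Treg WT, 512 ± 63.8 in Tconv KO and 546 ± 61.4 in Tconv WT and passed in no comparison. Per kilobase of transcript, Atp6v0a2 was the more abundant of the pair of Atp6v0a genes in every group, at 156 against 18.5 for Atp6v0a1 in Treg KO and 212 against 5.87 in Tconv WT.

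Within V1, the G subunit differed by 1 isoform. Atp6v1g2 (ENSMUSG00000024403.16, chromosome 17, 35233660 to 35238767, plus strand) encodes a stalk subunit that is best known from neurons. It had 58.0, 47.3, 49.6 and 45.5 in Treg KO, 56.9, 48.3, 54.7 and 79.8 in Treg WT, 24.5, 18.2, 25.6 and 13.3 in Tconv KO, and 9.04, 24.8 and 33.7 in Tconv WT. All Treg libraries were above all Tconv libraries, at 1.29 ± 0.32 in KO (adjusted p = 0.00627) and 1.53 ± 0.34 in WT (adjusted p = 0.00513). With reads thinned to the depth of the shallowest library, the WT value no longer passed (adjusted p = 0.0900). An exon of Nfkbil1 overlaps it on the other strand by 144 bases, and the sources do not state whether the count used strand. Its partner Atp6v1g1 passed in no comparison and averaged 219 ± 13.4 in Treg KO, 213 ± 5.61 in Treg WT, 241 ± 15.8 in Tconv KO and 237 ± 5.08 in Tconv WT.

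The remaining V1 subunits differed less. Those of the ATP-splitting head and the stalks (Atp6v1a, Atp6v1b2, Atp6v1c1, Atp6v1d, Atp6v1e1, Atp6v1f, Atp6v1g1 and Atp6v1h) passed in no KO against WT comparison and in no WT cell-type comparison. In Treg KO against Tconv KO, 3 of these 8 passed as lower, where 15.6% of all genes did. Atp6v1h, a regulatory subunit, had 238, 228, 239 and 211 in Treg KO, against 304, 277, 272 and 310 in Tconv KO, with no overlap (-0.34 ± 0.07, adjusted p = 0.00274). The corresponding WT levels were 219, 234, 244 and 226 in Treg and 255, 282 and 268 in Tconv, also without overlap (-0.22 ± 0.08, adjusted p = 0.0761). Atp6v1b2 at -0.22 ± 0.07 (adjusted p = 0.0291) and Atp6v1e1 at -0.24 ± 0.08 (adjusted p = 0.0374) lost their call when reads were thinned or only the 2 groups were fitted, and so did Atp6v0b at -0.39 ± 0.14 (adjusted p = 0.0461), with adjusted p-values of up to 0.160 over the settings. On the other strand, Atp6v0b shares 243 bases of exon with Gm12841, Atp6v1h 127 with Rgs20 and Atp6v1e1 32 with Slc25a18.

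Of the accessory proteins, Atp6ap2 (the prorenin receptor, needed for assembly of the pump, chromosome X, 12587801 to 12617049, plus strand) was lower in Treg. It had 271, 272, 340 and 280 in Treg KO, 246, 226, 254 and 259 in Treg WT, 418, 369, 343 and 396 in Tconv KO, and 333, 323 and 318 in Tconv WT. The Treg and Tconv libraries of each genotype did not overlap, at -0.39 ± 0.09 in KO (adjusted p = 0.00301) and -0.40 ± 0.09 in WT (adjusted p = 0.00704). All 4 Treg KO libraries were also above all 4 Treg WT libraries, at 0.23 ± 0.09, which did not pass (adjusted p = 0.0662). Atp6ap2 is X-linked, as are Atp6ap1 and Lamp2, and the KO and WT libraries differ in sex. Atp6ap2 is also 98.4% identical to the pseudogene Gm36448 over 438 bases. Atp6ap1 passed in no comparison.

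The c subunit, the main protein of the proton-carrying ring, could not be measured cleanly. Atp6v0c (ENSMUSG00000024121.13, chromosome 17, 24163866 to 24169702, minus strand) has a processed copy, Atp6v0c-ps2 (chromosome 6, 37806086 to 37806550, plus strand), that has a row of its own. Over the 465 coding bases compared, both are 99.8% identical and differ at 1 base, T111C, counted from the first base of the start codon with the base of Atp6v0c given first. The stretch around it, bases 81 to 141 from GENCODE vM21, is shown because it is the only place in the coding sequence where a read can tell these genes apart; the capital marks the base that differs.
Atp6v0c: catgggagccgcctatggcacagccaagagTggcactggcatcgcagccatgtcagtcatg
Atp6v0c-ps2: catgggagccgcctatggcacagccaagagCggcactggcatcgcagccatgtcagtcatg
Another copy, Atp6v0c-ps1, is 97.2% identical to Atp6v0c over 465 bases and has no row among those used.

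The share of the summed level that went to the copy was 29.8%, 16.4%, 35.6% and 29.4% in Treg KO, 45.7%, 29.1%, 24.4% and 62.8% in Treg WT, 72.5%, 62.4%, 80.6% and 25.0% in Tconv KO, and 29.1%, 23.5% and 26.5% in Tconv WT. It stood above 60% in Tconv KO replicates 1 to 3 and in Treg WT replicate 4 and below 46% in the other 11 libraries. The sum of both rows was 477 to 632 in 14 libraries and 187 in Treg KO replicate 3. Taken alone, Atp6v0c-ps2 was lower in Treg KO than in Tconv KO by 1.51 ± 0.38 on the log2 scale (adjusted p = 0.00728), with 157, 81.3, 66.8 and 140 in Treg KO and 388, 364, 442 and 131 in Tconv KO. Those groups overlapped through Tconv KO replicate 4. Summed as 1 row, a choice made after the values were seen, the pair passed in no comparison (adjusted p of 0.109 for Treg KO against Treg WT, 0.120 for Treg KO against Tconv KO, and 0.833 or more for the Tconv and WT comparisons). Rows of Atp6v0c and its copy are therefore uncertain one by one.

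**Figure D3:**
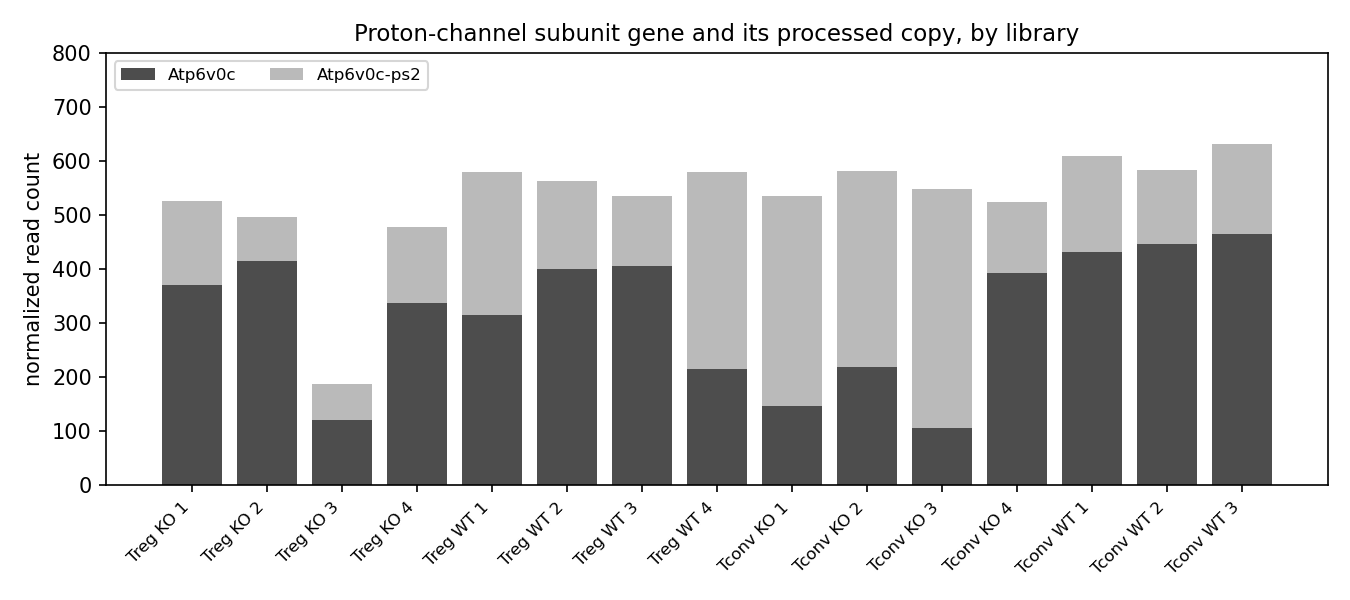
Normalized read count (y axis, stacked bars from 0) of Atp6v0c (dark) and its processed copy Atp6v0c-ps2 (light) in each of the 15 libraries. The height of the stack is 477 to 632 in all libraries but Treg KO replicate 3 (187), while the split between the rows differs between libraries, with a copy share of 16.4% to 80.6%.

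Among the cathepsins of the cysteine class, Ctss, Ctsz and Ctsf were higher in Treg than in Tconv in both genotypes. Ctss (ENSMUSG00000038642.10, chromosome 3, 95526786 to 95556403, plus strand), which trims the invariant chain of MHC class II in antigen-presenting cells, was the most abundant member per kilobase in Treg, at 1506 in Treg KO, 1281 in Treg WT, 789 in Tconv KO and 713 in Tconv WT, while Ctsd was higher per kilobase in Tconv, at 1121 in Tconv KO and 1017 in Tconv WT. Its counts were 2350, 1971, 2215 and 1629 in Treg KO, 1632, 1755, 1907 and 1650 in Treg WT, 1091, 1158, 1069 and 962 in Tconv KO, and 989, 940 and 971 in Tconv WT. Every Treg library was above every Tconv library. The log2 fold change of Treg against Tconv was 0.92 ± 0.10 in KO (adjusted p = 5.25e-06) and 0.84 ± 0.11 in WT (adjusted p = 3.85e-05). Treg KO and Treg WT overlapped, at 0.22 ± 0.10 (adjusted p = 0.114).

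Ctsz (chromosome 2, 174427493 to 174439039, minus strand), a carboxypeptidase, had 419, 377, 304 and 376 in Treg KO, 323, 319, 341 and 325 in Treg WT, 241, 228, 217 and 252 in Tconv KO, and 182, 190 and 241 in Tconv WT. Treg libraries again lay above all Tconv libraries, at 0.64 ± 0.10 in KO (adjusted p = 0.000256) and 0.69 ± 0.11 in WT (adjusted p = 0.000399). Ctsf (chromosome 19, 4855130 to 4860918, plus strand), a cysteine protease that also cuts the invariant chain in mouse macrophages, was far scarcer. It had 24.7, 29.1, 32.3 and 20.1 in Treg KO, 13.7, 24.8, 13.96 and 20.4 in Treg WT, 5.24, 7.98, 5.91 and 12.8 in Tconv KO, and 6.33, 2.11 and 6.87 in Tconv WT. The cell types did not overlap, at 1.67 ± 0.35 in KO (adjusted p = 0.00227) and 1.73 ± 0.38 in WT (adjusted p = 0.00452).

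Ctsl (chromosome 13, 64359337 to 64370890, minus strand), an endopeptidase known from thymic epithelium, ran the other way at low level. It had 11.6, 9.70, 30.2 and 34.8 in Treg KO, 25.4, 19.3, 16.9 and 22.2 in Treg WT, 47.2, 55.8, 49.3 and 53.9 in Tconv KO, and 46.1, 36.9 and 48.1 in Tconv WT. All Treg libraries were below all Tconv libraries, and the call was made in KO (-1.41 ± 0.32, adjusted p = 0.00388) and missed in WT (-1.03 ± 0.35, adjusted p = 0.0531). Ctsl overlaps the processed pseudogene Gm49230, identical over 395 bases, and shares 977 bases of exon with Gm47123 on the other strand, so its level is uncertain. The other cysteine cathepsins tested (Ctsb, Ctsc, Ctso and Ctsw) passed in no comparison.

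Of the aspartic class, Ctsd (ENSMUSG00000007891.16, chromosome 7, 142375911 to 142388038, minus strand), the main aspartic protease of lysosomes, was lower in Treg. It had 1657, 1733, 1706 and 1677 in Treg KO, 1671, 1669, 1617 and 1596 in Treg WT, 2762, 2483, 2196 and 2095 in Tconv KO, and 2095, 2121 and 2275 in Tconv WT. Without overlap, Treg stood below Tconv by -0.48 ± 0.07 in KO (adjusted p = 0.000157) and -0.40 ± 0.08 in WT (adjusted p = 0.00214). The spread within Treg was small, with SDs of 33.6 in KO and 37.9 in WT around means of 1693 in KO and 1638 in WT. The longest stretch of exon that Ctsd shares with Gm49369 on the same strand is 227 bases. Their transcripts are 100% identical over 671 bases, so the level of Ctsd is uncertain.

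Ctse (chromosome 1, 131638306 to 131675505, plus strand), an aspartic protease of endosomes, was the other member called in Treg KO against Treg WT. It had 271, 268, 312 and 223 in Treg KO, 201, 212, 198 and 190 in Treg WT, 248, 251, 181 and 167 in Tconv KO, and 240, 233 and 216 in Tconv WT. Every Treg KO library was above every Treg WT library, at 0.41 ± 0.13 (adjusted p = 0.0365), while Tconv KO and Tconv WT overlapped, at -0.14 ± 0.14 (adjusted p = 0.714). The difference between these effects was 0.55 ± 0.19 (adjusted p = 0.422). The call in Treg ended when reads were thinned, when the trend on GC content was removed, and when any 1 of the 8 libraries except Treg KO replicate 4 was left out, with adjusted p-values of 0.0539 to 0.102. Of the serine class, Ctsa, a carboxypeptidase that protects other lysosomal enzymes, had 955, 952, 750 and 789 in Treg KO and 1122, 1079, 988 and 973 in Tconv KO (-0.28 ± 0.09, adjusted p = 0.0282), a call that also ended on thinning (adjusted p = 0.172). Ctsa shares exon with Neurl2 and Pltp on the other strand.

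**Figure D4:**
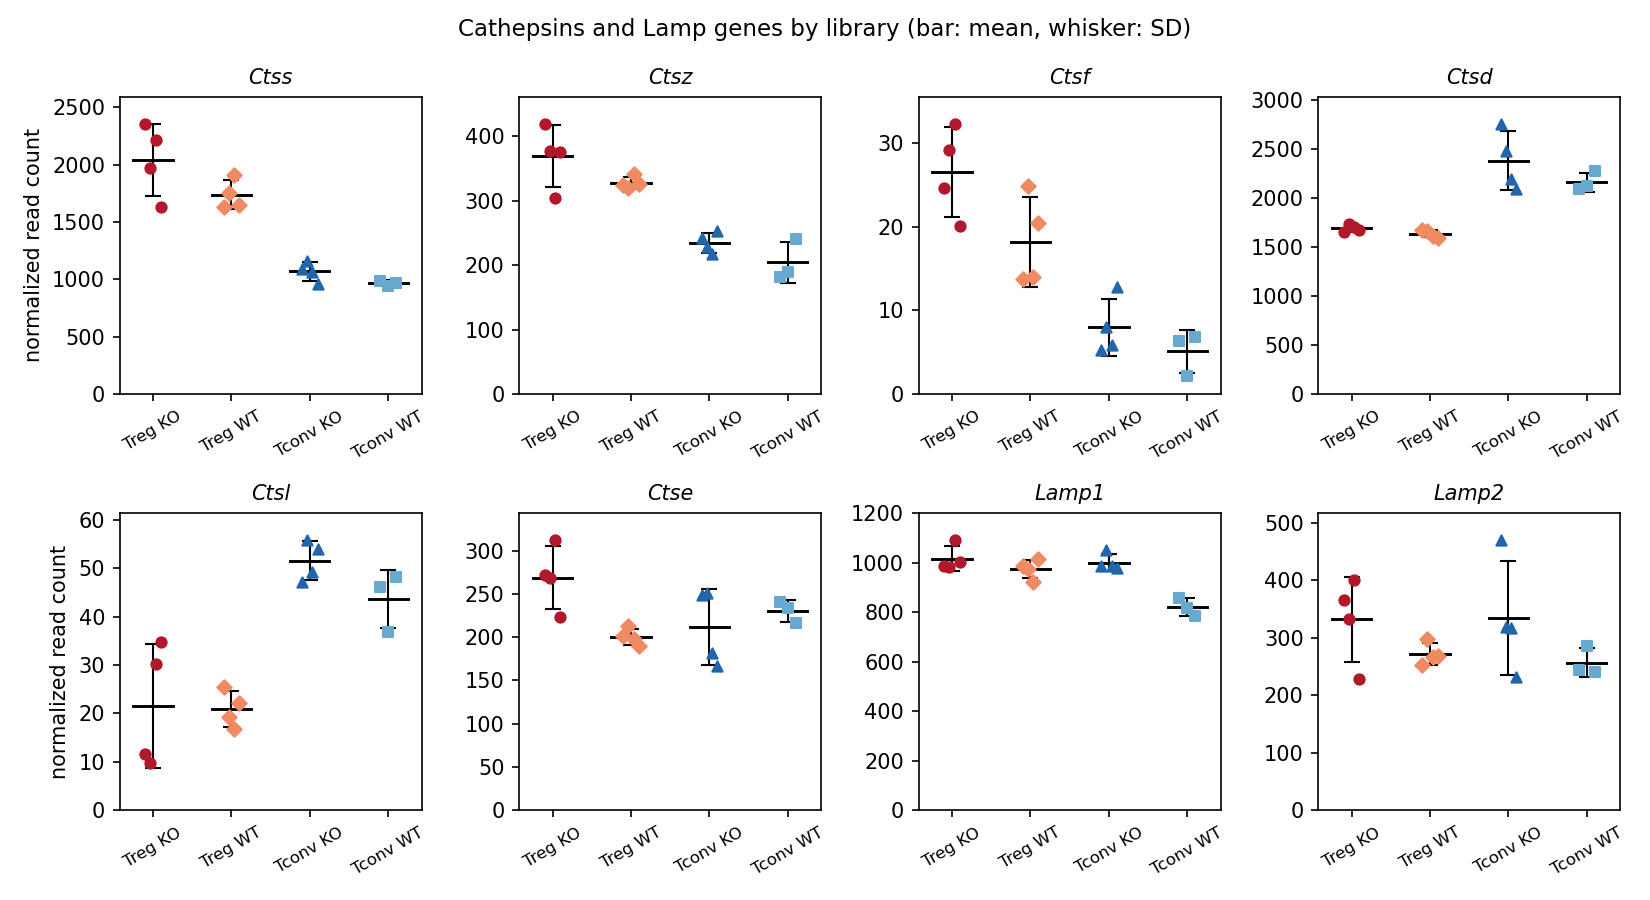
Normalized read count (y axis, linear from 0, 1 panel a gene) of 6 cathepsins and 2 Lamp genes in each library of Treg KO, Treg WT, Tconv KO and Tconv WT, with the mean (bar) and SD (whisker) of each group. Ctss, Ctsz and Ctsf were higher and Ctsd and Ctsl lower in Treg of both genotypes without overlap, and Lamp1 was lowest in the 3 Tconv WT libraries.

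Cell types that carry much cathepsin were measured through their markers. The 7 B cell markers summed to 798 to 1709 in Treg KO, 511 to 734 in Treg WT, 56.1 to 147 in Tconv KO and 42.5 to 50.2 in Tconv WT, and so were higher where Ctss and Ctsz were higher. Almost all of that was Cd74, the invariant chain that Ctss cuts, with means of 985 ± 409 in Treg KO, 531 ± 83.6 in Treg WT, 82.1 ± 39.9 in Tconv KO and 35.2 ± 4.01 in Tconv WT, and Cd79b, with 135 ± 22.2 in Treg KO, 78.3 ± 4.95 in Treg WT, 11.5 ± 6.59 in Tconv KO and 4.91 ± 2.80 in Tconv WT. Pax5 had 0 reads in all Treg KO libraries and Ebf1 had 0 reads in all Tconv WT libraries. The 6 markers of CD8 T and NK cells, in which Ctsw is known to be expressed, summed to 175 to 218 in Treg KO, 132 to 170 in Treg WT, 379 to 995 in Tconv KO and 404 to 484 in Tconv WT. Nkg7 had 73.6 to 155 in Treg KO and 70.6 to 96.0 in Treg WT, against 214 to 914 in Tconv KO and 256 to 378 in Tconv WT. Klrb1c was at most 10.8 in Treg and 19.2 to 104 in Tconv. Cd8b1 ran from 47.4 (Tconv WT) to 94.9 (Treg KO), with the cell types overlapping. In any library, Cd8a reached at most 6.46, Ncr1 0.556 and Gzma 31.1. Erythroid markers summed to at most 8.02 in any library. The part of other cells in these values was not tested.

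Lamp1 (ENSMUSG00000031447.7, chromosome 8, 13159161 to 13175338, plus strand), a main glycoprotein of the lysosomal membrane that also reaches the surface of degranulating T cells, had 988, 983, 1092 and 1004 in Treg KO, 988, 972, 924 and 1014 in Treg WT, 988, 1052, 986 and 977 in Tconv KO, and 859, 816 and 786 in Tconv WT. The 3 Tconv WT libraries were below all 12 others, and the other 3 groups overlapped. Tconv KO against Tconv WT gave 0.29 ± 0.06 (adjusted p = 0.0465), and Treg WT against Tconv WT gave 0.25 ± 0.06 (adjusted p = 0.00919). These calls share the 3 Tconv WT libraries. The first ended with any 1 of its 7 libraries left out (adjusted p of 0.0565 to 0.227), and the other ended without Tconv WT replicate 3 (adjusted p = 0.0552). Treg KO against Tconv KO gave 0.02 and Treg KO against Treg WT gave 0.06 ± 0.06, and neither passed. Lamp1 shares 177 bases of exon with Grtp1 on the other strand.

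Lamp2 (chromosome X), a membrane glycoprotein needed for a form of autophagy, averaged 332 ± 74.2 in Treg KO, 271 ± 19.4 in Treg WT, 334 ± 99.4 in Tconv KO and 257 ± 25.6 in Tconv WT. It passed in no comparison, and its KO against WT values were 0.26 ± 0.19 in Treg (adjusted p = 0.326) and 0.34 ± 0.20 in Tconv (adjusted p = 0.514). Lamp3, found in human mature dendritic cells, averaged 17.8 ± 2.25 in Treg KO, 18.2 ± 3.35 in Treg WT, 18.2 ± 5.48 in Tconv KO and 16.7 ± 4.38 in Tconv WT and passed in none.

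**Figure D5:**
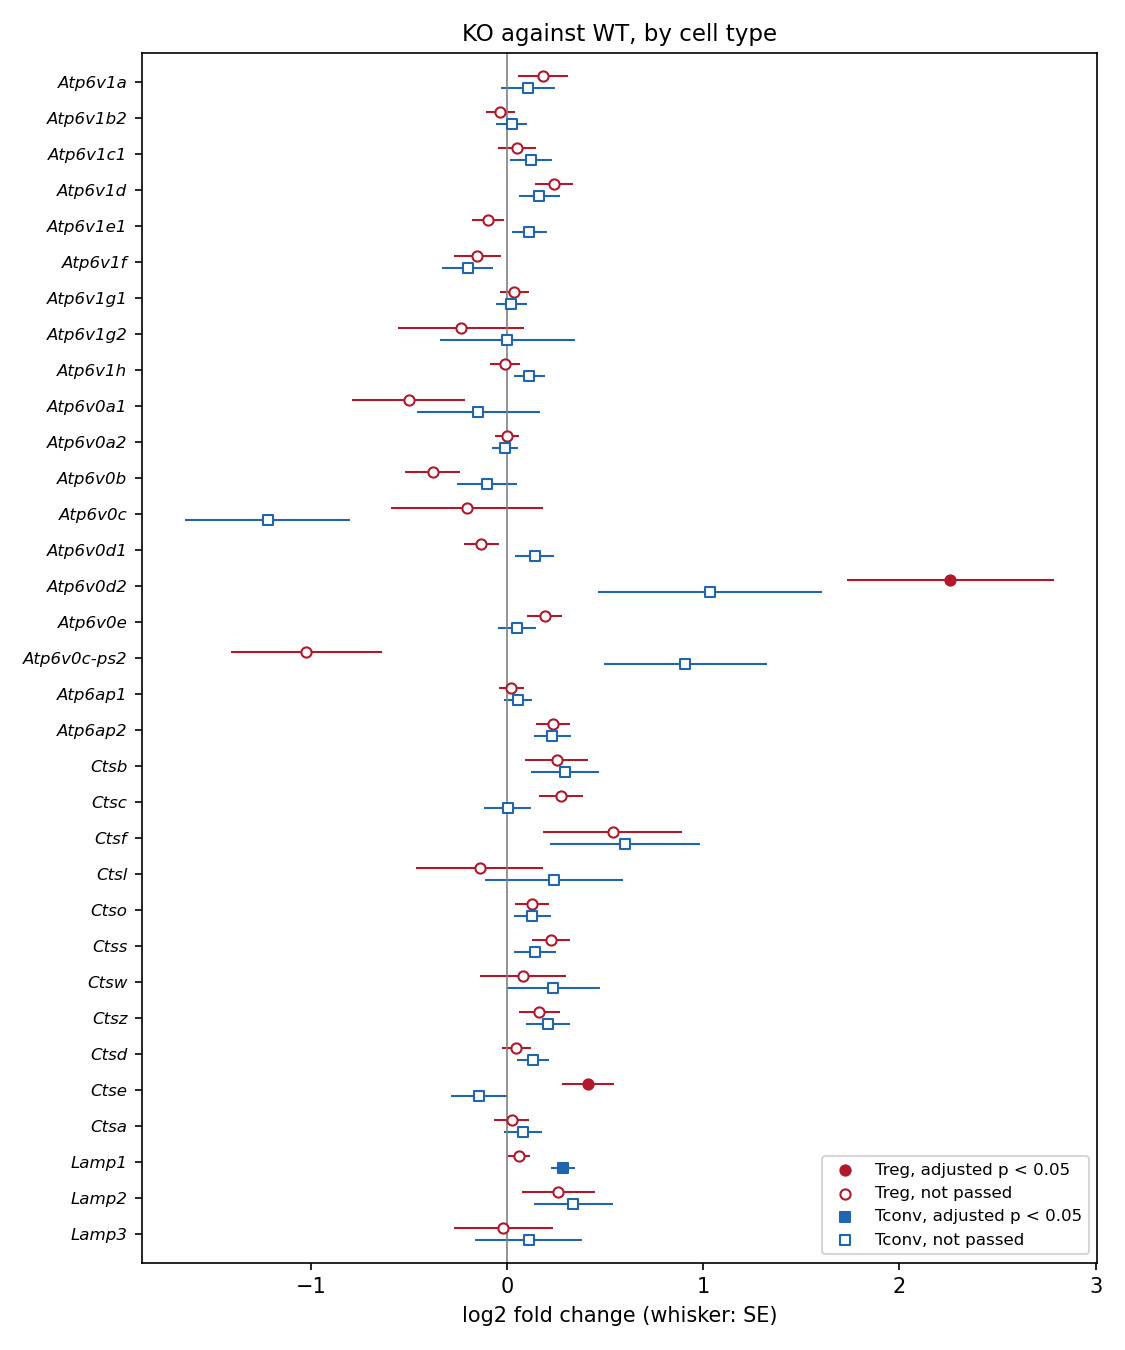
Log2 fold change (x axis) of KO against WT for the 33 members tested, in Treg (circles) above Tconv (squares), ordered by role, with whiskers of 1 SE and filled symbols for an adjusted p under 0.05. Atp6v0d2 (2.26) and Ctse (0.41) passed in Treg and Lamp1 (0.29) in Tconv, and apart from Atp6v0d2, Atp6v0a1, Atp6v0c, Atp6v0c-ps2 and Ctsf the members lay within 0.5 of 0 in both cell types.

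The members not tested were at or near 0. Atp6ap1l had 0 reads in all 15 libraries, and Atp6v1b1 and Atp6v1c2, isoforms known from kidney, reached no more than 1.34. Ctsk, the collagen-cutting protease of osteoclasts, had levels of 0 to 9.70 in Treg KO, 2.07 to 4.65 in Treg WT, 2.28 to 6.11 in Tconv KO and 1.37 to 10.8 in Tconv WT. Ctsh ran from 1.21 to 8.02 in Treg KO, 0 to 4.43 in Treg WT and 0 to 2.28 in Tconv KO, and had 0 reads in all Tconv WT libraries. Ctsg, a protease of neutrophil granules, reached at most 1.34.

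Other genes of the lysosome were read from 5 lists, whose counts stand against the shares of all genes that passed: 10.4% higher and 11.1% lower in Treg KO against Treg WT, 15.8% higher and 15.6% lower in Treg KO against Tconv KO, and 10.0% higher and 8.06% lower in Treg WT against Tconv WT. Of 45 further hydrolases and membrane proteins, 44 were tested; 4 were higher and 4 lower in Treg KO than in Treg WT (a median log2 fold change of -0.03, against 0.00 over all genes), and 0 in either direction in Tconv KO against Tconv WT. In Treg KO against Treg WT, the calcium channel Mcoln1 was at 178 ± 18.8 in KO and 259 ± 7.68 in WT (-0.54 ± 0.10, adjusted p = 0.00232), and the thioesterase Ppt1 at 677 ± 106 in KO and 476 ± 29.3 in WT (0.50 ± 0.09, adjusted p = 0.00294). Treg against Tconv gave 3 higher and 9 lower in KO and 3 higher and 4 lower in WT. The sulfatases Sgsh and Arsb were among the lower: Sgsh by -1.14 ± 0.11 in KO (adjusted p = 2.50e-06) and -0.74 ± 0.12 in WT (adjusted p = 0.000442), and Arsb by -0.94 ± 0.11 in KO (adjusted p = 1.37e-05) and -0.82 ± 0.12 in WT (adjusted p = 0.000144).

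Of 7 genes tested that sort enzymes to the lysosome, 2 were lower and 0 higher in Treg KO than in Treg WT, and 0 passed in Tconv. These were the adaptors Gga1, which fell by 0.51 ± 0.15 on the log2 scale (adjusted p = 0.0272), and Gga3, which fell by 0.22 ± 0.06 (adjusted p = 0.0175). With the trend on GC content removed, neither passed, at 0.01 for Gga1 (adjusted p = 0.929) and -0.06 for Gga3 (adjusted p = 0.527). Treg against Tconv gave 2 higher and 3 lower in KO and 2 higher and 1 lower in WT. Igf2r, the large mannose 6-phosphate receptor, averaged 1966 ± 173 in Treg KO, 2093 ± 51.5 in Treg WT, 1240 ± 101 in Tconv KO and 1087 ± 79.1 in Tconv WT and was higher in Treg by 0.66 ± 0.08 in KO (adjusted p = 1.04e-05) and 0.95 ± 0.08 in WT (adjusted p = 8.73e-07).

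Of 19 regulators tested, 1 was higher and 1 lower in Treg KO against Treg WT, 0 passed in Tconv, 2 were higher and 2 lower in Treg KO against Tconv KO, and 2 were higher and 0 lower in Treg WT against Tconv WT. The calls in Treg KO against Treg WT, Slc38a9 and Lamtor1, ended once the trend on GC content was taken out (0.193 and 0.929 as adjusted p for Slc38a9 and Lamtor1) and with most single libraries left out. Rragd, a GTPase through which amino acids signal at the lysosome, stood apart by size, at 258 ± 64.0 in Treg KO, 227 ± 43.7 in Treg WT, 26.0 ± 7.18 in Tconv KO and 26.4 ± 10.6 in Tconv WT. Its log2 fold change in Treg against Tconv was 3.27 ± 0.24 in KO (adjusted p = 1.26e-07) and 3.11 ± 0.25 in WT (adjusted p = 5.21e-07). Among 5 protease inhibitors tested was Cst7 (cystatin F), which acts on cysteine cathepsins. Cst7 was higher in Treg by 1.88 ± 0.28 in KO (adjusted p = 0.000126) and 1.67 ± 0.30 in WT (adjusted p = 0.000977). In all, 3 inhibitors were higher and 0 lower in KO and 2 higher and 0 lower in WT, and Treg KO against Treg WT gave 1 higher and 1 lower. Another list held the pump's a3 subunit, assembly factors and regulators, of which 10 were tested. Of these, Ncoa7, a protein that binds the pump, was higher in Treg by 1.08 ± 0.15 in KO (adjusted p = 7.06e-05) and 1.28 ± 0.16 in WT (adjusted p = 4.55e-05). With it, 2 were higher and 2 lower in KO, 1 higher and 0 lower in WT, and 1 higher and 0 lower in Treg KO against Treg WT, the assembly factor Vma21, whose call ended once that trend was taken out (adjusted p = 0.315). The inhibitors called in Treg KO against Treg WT were Serpinb6a and Cstb, and both calls ended with thinned reads (adjusted p of 0.0511 for Serpinb6a and 0.0944 for Cstb). From the 5 lists, 36 called values were followed over the settings, at most 3 per list and comparison by smallest p. Of these 36, 19 were called in every setting that gave a value and with each library left out. The other called values of the lists were not followed.

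Promoters were read for the motif of the basic helix-loop-helix factors of the Tfeb family, which drive many lysosomal genes through a palindrome. RefSeq promoters (GRCm38.p6, 250 bases before to 50 bases after the start) were found for 29 of the 41 members. The motif CACGTG, which reads the same on both strands, was in 9 of the 29 (31.0%) and in 2187 of 27025 genes (8.09%). The longer TCACGTGA, which contains it, was in 5 of the 29 (17.2%) and in 304 of the 27025 (1.12%). These windows of 30 bases are shown for the 5 members with the longer motif, in capitals, to set the sequence beside their calls: Atp6v0d1, Ctsd and Ctsa were lower in Treg KO than in Tconv KO, and Atp6v0e and Atp6v1a passed in no comparison. Ctsa holds it at 2 places, and both windows are given.
Atp6v0d1, chr8:105566050-105566079, minus strand: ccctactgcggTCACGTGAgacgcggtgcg
Atp6v0e, chr17:26676387-26676416, plus strand: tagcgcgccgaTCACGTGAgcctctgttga
Atp6v1a, chr16:44139373-44139402, minus strand: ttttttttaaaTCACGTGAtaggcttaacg
Ctsa, chr2:164833749-164833778, plus strand: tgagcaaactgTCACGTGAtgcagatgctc
Ctsa, chr2:164833766-164833795, plus strand: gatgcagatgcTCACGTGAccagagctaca
Ctsd, chr7:142387908-142387937, minus strand: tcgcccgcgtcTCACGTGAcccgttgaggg
A match is a description of the sequence only.

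The whole promoters of Lamp1 and Ctss show the range among the called members, with CACGTG in capitals. Lamp1 holds it 4 times within 61 bases before its start, and Ctss, the most abundant member per kilobase in Treg, holds it 0 times in this window.
Lamp1, chr8:13158911-13159210, plus strand: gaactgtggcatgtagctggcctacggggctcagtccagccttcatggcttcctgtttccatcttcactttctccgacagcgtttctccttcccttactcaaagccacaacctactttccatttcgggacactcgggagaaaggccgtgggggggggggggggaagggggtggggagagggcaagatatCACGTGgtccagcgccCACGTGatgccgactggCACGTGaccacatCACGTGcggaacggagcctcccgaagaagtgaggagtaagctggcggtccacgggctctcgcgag
Ctss, chr3:95526536-95526835, plus strand: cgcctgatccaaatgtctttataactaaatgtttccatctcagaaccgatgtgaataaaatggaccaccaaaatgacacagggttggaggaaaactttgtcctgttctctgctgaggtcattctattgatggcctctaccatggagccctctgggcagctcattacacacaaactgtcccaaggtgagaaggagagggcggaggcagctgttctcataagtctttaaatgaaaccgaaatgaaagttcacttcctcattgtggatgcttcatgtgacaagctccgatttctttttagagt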

How the data were processed

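RNA of 15 libraries was measured by sequencing; per the labels, sorted cells were lysed in Qiazol and libraries came from an Illumina TruSeq RNA kit with 10 ng of total RNA. TopHat and the genome build mm10 are named in the submitters' processing notes; neither its version nor the counting, strand setting or annotation is stated there or in the labels. In the deposited table is 1 normalized signal per gene and library, read counts that the authors scaled by a factor of each library, as the values themselves show: 100% were whole multiples of 1 step within 0.001, so whole reads were recovered.

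Values were taken as log2(value + 1). The filter was 10 or more in 3 or more libraries, and 4 group means were fitted to all 15 libraries in limma 3.58.1 (R 4.3.3, trend on mean level, two-sided, Benjamini-Hochberg over the 11314 genes within a comparison). Libraries count as independent replicates, so p-values measure the spread between libraries, which may be partly technical. Replicates are numbered in accession order and pair nothing. On the recovered reads, edgeR 4.0.16 (quasi-likelihood) called 2444 genes in Treg KO against Treg WT, 93 in Tconv KO against Tconv WT, 3462 in Treg KO against Tconv KO and 2326 in Treg WT against Tconv WT, and DESeq2 1.42.0 was a further alternative. The fit was tested on simulated data. The ratio of Atp6v0d2 to Atp6v0d1 used log2(value + 1) per library.

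Any row of the rule may be named; values in every library are given for Atp6v0d2, Atp6v0d1 and up to 8 members per direction and comparison by smallest p, and up to 3 genes per list and comparison among those that passed. Members and lists were chosen with earlier results of these data known. Positions and lengths come from GENCODE vM21 (GRCm38) by symbol, promoters from RefSeq. Of 7 listed protease inhibitors, 6 had a row, and Adgre1 was not used. Limits from a count of 0 cover counting error only, as the labels mention no molecular identifiers.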

Additional observations from a re-analysis of the deposited data

Results flagged for a closer look

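In Treg KO, Atp6ap2 was 340 in replicate 3 and 271 to 280 in the other 3 libraries, a gap that made 1 library stand far from the rest. Lamp1 was 1052 in Tconv KO replicate 2 and 977 to 988 in the other 3 Tconv KO libraries. These are 2 of the 99 groups of 4 libraries looked at, and chance alone flags about 5 in 100.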

How the results depend on the processing

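Of 30 called member values, 22 were called under every setting that gave a value and with each library left out, and 0 reversed; a mean of at least 50 gave none for Atp6v0d2, Atp6v1g2, Ctsf and Ctsl. Called members in Treg KO against Treg WT were 1 higher with a mean of at least 50 and 1 with thinned reads, and 2 lower in DESeq2. In Tconv KO against Tconv WT they were 0 without a filter, with TMM, with thinned reads and with only these groups fitted. In Treg KO against Tconv KO, 7 were lower with only these groups fitted. In Treg WT against Tconv WT, 4 were higher with a mean of at least 50, and lower were 6 in edgeR, 6 in DESeq2, 5 with TMM, 5 with the GC trend removed and 11 with only these groups fitted. The interaction had 1 lower in DESeq2. Over all genes, main against alternative: Treg KO against Treg WT had 1178 higher, 783 with the GC trend removed, and 1253 lower, 760 with GC and 785 with only these groups. Tconv KO against Tconv WT had 33 higher, 105 in DESeq2, 21 with a mean of at least 50 and 14 with only these groups, and 44 lower, 131 in DESeq2 and 18 with only these groups. Only these groups fitted gave 1075 higher and 967 lower of 1793 and 1765 for Treg KO against Tconv KO, and 2064 and 1926 of 1134 and 912 for Treg WT against Tconv WT. The interaction had 4 higher (2 in edgeR, 32 in DESeq2, 10 with GC) and 13 lower (59 in DESeq2, 29 with GC). The cause was not tested.

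Leaving out each library gave, for members higher and lower, 1 to 3 and 0 to 2 in Treg KO against Treg WT (2 lower without Treg KO replicate 1, 1 without Treg KO replicate 2 and 1 without Treg WT replicate 3), 0 in Tconv KO against Tconv WT whichever library was left out, 6 to 8 and 7 to 12 in Treg KO against Tconv KO (7 without Tconv KO replicate 1), 6 to 7 and 3 in Treg WT against Tconv WT, and 0 for the interaction. Over all genes it gave 671 to 1278 and 723 to 1463, 13 to 61 and 9 to 54, 1503 to 2020 and 1409 to 1873, 816 to 969 and 589 to 753, and 1 to 7 and 2 to 18 in the same order; in Treg KO against Treg WT the counts fell by over 1.5 times without Treg WT replicate 1 (671 and 723) or replicate 4 (725 and 770), and in Treg WT against Tconv WT without Tconv WT replicate 1 (589 lower). In Tconv KO against Tconv WT, 61 were higher without Tconv KO replicate 4, and 13, 14 and 18 without Tconv WT replicates 1, 2 and 3, which also left 9, 13 and 12 lower; 24 and 26 were lower without Tconv KO replicates 1 and 2. Most libraries moved the small interaction counts by as much. The ratio difference stayed within 2.01 to 2.73, 0.25 to 1.45, 4.26 to 4.97 and 2.50 to 3.70 in that order. For Tconv KO against Tconv WT it was 1.45 without Tconv WT replicate 2 and 0.25 without Tconv WT replicate 3. With all libraries and 8 in place of 1 added to each value, the ratio differences were 2.04, 0.18, 3.48 and 1.63 in that order. All but that of Treg KO against Treg WT were below the ranges above. Reversed in sign were Gga1 in Treg KO against Treg WT with the GC trend removed (0.0117), and, with Atp6v0c and its copy summed (chosen after seeing the data), Atp6v0c in Treg KO against Tconv KO (-0.48 for 0.55) and in the interaction (-0.37 for 1.02); in these last the sum itself makes the difference. No paired analysis was possible because replicate numbers follow accession order and the labels tie no libraries to an animal. Depth limits Atp6v0d2 in Tconv, with 0 to 9 reads a library.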
